A study of Mus musculus with 16 samples.

Results

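The 10 genes described here belong to the BCL2 family, and were taken by symbol from a table of 24421 genes: the anti-apoptotic genes Bcl2a1a, Bcl2a1b, Bcl2a1d, Mcl1 and Bcl2l1, the pore formers Bax and Bak1, and the BH3-only genes Bcl2l11, Bid and Bbc3. All 10 passed the filter on low counts, as did 9642 genes in all. They were measured by RNA-seq of CD11b+ cells sorted in bulk out of MC38-Ova tumours, a murine colon adenocarcinoma line carrying ovalbumin, grown under the skin of C57BL/6 Kaede transgenic mice. Kaede is a protein whose green fluorescence turns red under violet light, so that after the tumour was illuminated, cells already inside were Kaede-red and cells that entered later were Kaede-green. Each colour was collected 24h and 72h after photoconversion with 4 libraries a group, 16 in all, and the label for treatment reads Control in every one. Live cells were gated as CD45+, Kaede+ and CD11b+ and as negative for TER119 and NK1.1, so each library is a mixture of myeloid cells, and Kaede-green cells at 72h include any that entered in the whole interval.

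Proteins of the BCL2 family decide whether the outer mitochondrial membrane is opened. BAX and BAK form the pore, BH3-only proteins such as BIM (Bcl2l11), BID and PUMA (Bbc3) trigger them, and A1 (Bcl2a1), MCL1 and BCL-XL (Bcl2l1) hold both in check. In myeloid cells MCL1 and A1 are short-lived proteins, and A1 is known as a target of NF-κB and of growth factor signals.

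The ribosomal RNA row Rn45s held 79.0 to 93.4% of the counts of Kaede-green libraries and 55.8 to 84.9% of those of Kaede-red libraries, which left 468092 to 912689 and 758192 to 5472477 counts for other genes. Values are therefore given as CPM, each gene's counts relative to the library's total after TMM scaling on the usual per-million basis, which sets the median gene near no change, and the colours differ in this share and in depth as well. All 8 macrophage or monocyte markers were tested, and their summed level was 1039 to 2453 CPM in Kaede-green and 716.5 to 1184 CPM in Kaede-red libraries at 24h, and 1241 to 1701 CPM and 1291 to 1633 CPM at 72h. Lyz2 was the largest part of that sum in either colour, with means of 1049 CPM (Kaede-green) and 448.4 CPM (Kaede-red). It was the 1 marker of the 8 called lower in Kaede-red cells over both times (log2 fold change -1.25). The other calls went the opposite way, with 4 markers higher: Itgam (0.44), Csf1r (0.95), Cd68 (1.14) and Adgre1 (1.53). Of 10 neutrophil markers 2 were tested, and Ngp was at 0 in 16 of 16 libraries. S100a8 and S100a9 stayed below a mean of 1 CPM in both colours. The summed neutrophil list was 18.8 to 23.8 CPM in Kaede-red libraries at 72h, against 9.40 to 14.6 CPM in the other 3 groups, and Csf3r made up most of it. Fibroblast markers summed to 40.3 to 52.2 CPM and 45.4 to 49.8 CPM in Kaede-green libraries at 24h and 72h, above the 19.6 to 37.3 CPM and 11.9 to 19.1 CPM of Kaede-red libraries. Endothelial markers went the other way, with 11.1 to 15.9 CPM at 24h and 10.7 to 19.4 CPM at 72h in Kaede-green and 18.8 to 23.2 and 21.9 to 36.8 CPM in Kaede-red libraries, Pecam1 and Kdr being called higher and Cdh5 lower over both times. Markers of dividing cells summed to 34.6 to 52.7 CPM in Kaede-green and 20.0 to 27.7 CPM in Kaede-red libraries at 72h and overlapped at 24h, and none of the 5 was called over both times. Of 6 dendritic cell and 8 T and NK cell markers, 2 in each list were tested. Ccr7 (4.52) and Cd4 (2.46) were called higher in Kaede-red cells over both times, and 0 lower. Their means were low, 0.224 and 1.65 CPM for Ccr7 and 0.148 and 0.761 CPM for Cd4 in Kaede-green and Kaede-red libraries. What these lists contribute to the differences below was not tested, and in bulk samples fewer cells of a type and less RNA per cell cannot be told apart.

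Per kilobase of annotated exon, Mcl1 and the Bcl2a1 genes stood far above the rest of the family. In Kaede-green cells at 24h the levels per kilobase were 70.6 ± 5.31 CPM for Mcl1, 66.7 ± 7.25 for Bcl2a1b, 40.5 ± 3.27 for Bcl2a1a and 27.1 ± 7.21 for Bcl2a1d (SD, n = 4). Mcl1 and Bcl2a1b differed by less than the larger of their SDs. The remaining genes reached 4.79 ± 2.01 CPM per kilobase for Bak1, 3.94 ± 2.38 for Bax, 1.97 ± 0.323 for Bcl2l11, 1.58 ± 0.246 for Bcl2l1, 0.771 ± 0.507 for Bid and 0.252 ± 0.240 for Bbc3 (SD, n = 4). By the same measure the neighbours Bak1 and Bax, and Bax and Bcl2l11, did not differ beyond their spread. In Kaede-red cells at 24h the order at the top had changed, with 112.6 ± 34.4 CPM per kilobase for Bcl2a1b, 83.8 ± 29.7 for Bcl2a1a, 63.3 ± 18.8 for Bcl2a1d and 52.7 ± 3.63 for Mcl1.

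**Figure D1:**
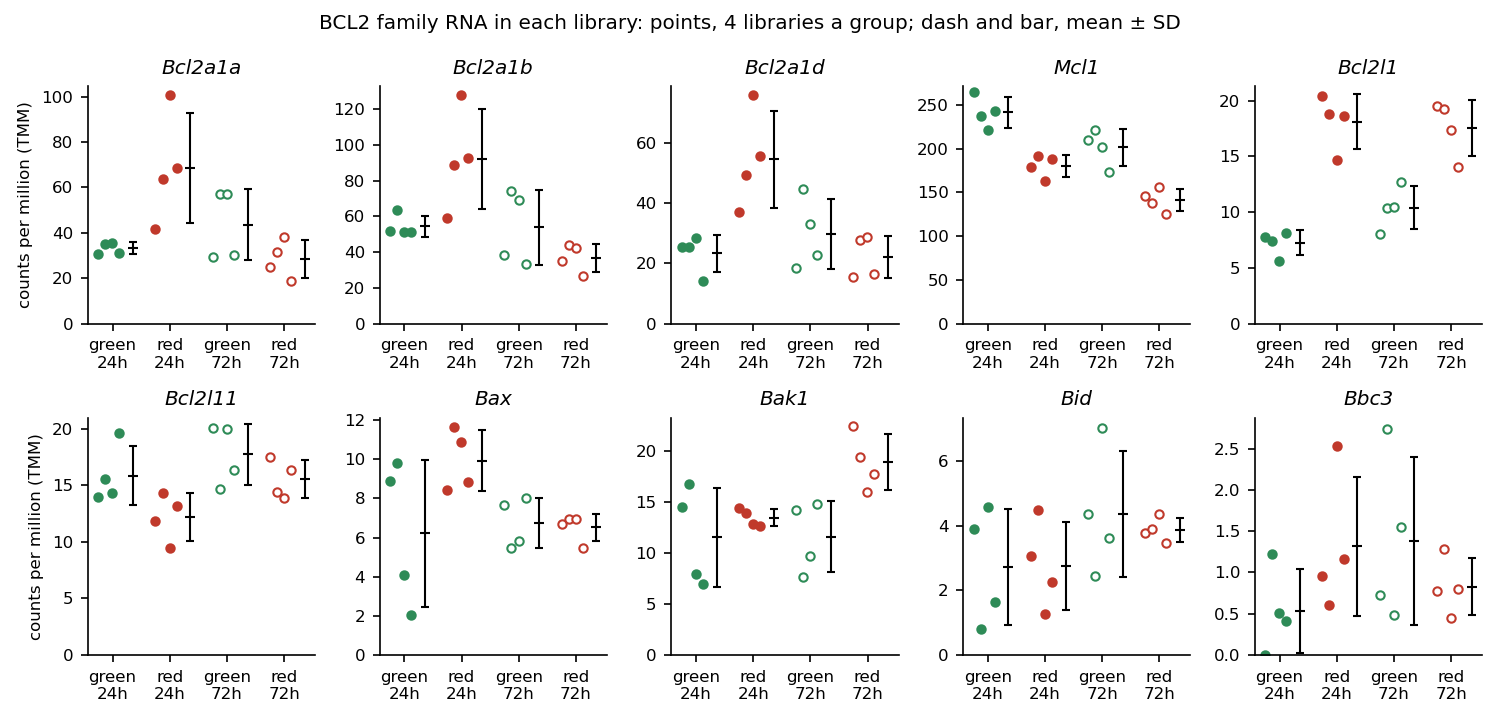
Each panel plots 1 BCL2 family gene, with TMM-scaled CPM on the y axis and the 4 groups on the x axis; points are single libraries (filled at 24h, open at 72h; green and red for the Kaede colour) and the dash with its bar is the mean ± SD of 4 libraries. The Bcl2a1 genes peak in Kaede-red cells at 24h, Bcl2l1 is higher in all 8 Kaede-red libraries, and Mcl1 is lowest in Kaede-red cells at 72h.

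The Bcl2a1 genes are mouse copies of a single A1 gene on chromosome 9 and are near-identical, which bears on how their reads can be divided. In mm10 (GENCODE M21) Bcl2a1a lies at chr9:88956900-88962419 on the plus strand, Bcl2a1b at chr9:89199209-89207827 on the plus strand and Bcl2a1d at chr9:88723285-88731914 on the minus strand, each with 2 exons. Over their 519 coding bases, Bcl2a1a and Bcl2a1b differed at 11 bases, Bcl2a1a and Bcl2a1d at 7, and Bcl2a1b and Bcl2a1d at 6. The first 90 coding bases, which hold 6 of the 12 positions at which the 3 copies differ, are shown to make plain how few bases can tell them apart. Capitals mark those positions.

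Bcl2a1a: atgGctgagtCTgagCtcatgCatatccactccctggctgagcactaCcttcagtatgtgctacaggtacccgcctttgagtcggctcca
Bcl2a1b: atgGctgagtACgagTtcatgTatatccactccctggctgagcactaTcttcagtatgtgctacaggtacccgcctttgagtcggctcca
Bcl2a1d: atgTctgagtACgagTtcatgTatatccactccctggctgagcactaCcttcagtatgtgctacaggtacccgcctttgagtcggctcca

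Of the 150-base windows of each transcript, 150 being the read length, 28.2% of those of Bcl2a1a, 14.2% of those of Bcl2a1b and 30.3% of those of Bcl2a1d occurred unchanged in another copy. Reads were sequenced in pairs, and these shares do not consider the mate. How reads that fit more than 1 copy were counted is not given in the sources used here, and the first exon of Bcl2a1b also overlaps a gene model on the same strand that has no row in the table, over 49.1% of the exonic length of Bcl2a1b. The split between the copies is therefore uncertain, and the sum of the 4 Bcl2a1 rows is given beside them. The fourth row, Bcl2a1c, held 0 to 10 counts per library and was too low to test.

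The windows around the annotated start sites were compared as well. In the RefSeq windows of 250 bases before and 50 bases after the start (GRCm38.p6), Bcl2a1a and Bcl2a1d were 94.1% identical, Bcl2a1a and Bcl2a1b 73.8% and Bcl2a1b and Bcl2a1d 70.6%. A 100-base stretch from each, 5′ to 3′ on the strand of the gene, is shown to compare the copies. Each was cut to begin shortly before a match to TGANTCA, a loose form of the AP-1 motif. This match and the GC box (GGGCGG), searched on both strands, are in capitals. Counted from the annotated start, the match stood at -120 in Bcl2a1a, -164 in Bcl2a1b and -114 in Bcl2a1d. The windows are therefore shifted against each other. Aligning windows of 300 bases took 344 columns for Bcl2a1a and Bcl2a1b, and unpaired columns lower the percentages. These percentages do not show that the copies differ more here than in their coding bases.

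Bcl2a1a, chr9:88956790-88956889, plus strand: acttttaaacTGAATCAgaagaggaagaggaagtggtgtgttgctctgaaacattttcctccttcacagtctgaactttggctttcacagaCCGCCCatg
Bcl2a1b, chr9:89199099-89199198, plus strand: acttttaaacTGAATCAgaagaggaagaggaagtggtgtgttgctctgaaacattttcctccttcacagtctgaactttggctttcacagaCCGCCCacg
Bcl2a1d, chr9:88731875-88731974, minus strand: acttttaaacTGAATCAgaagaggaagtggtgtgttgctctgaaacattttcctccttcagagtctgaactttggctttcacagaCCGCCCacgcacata

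The pattern TGANTCA occurred once in the window of each of these 3 genes, in none of the other members' windows, and in 7.81% of 32851 promoter windows. All 3 matches read TGAATCA, and as the copies share this sequence they are not separate observations. The GC box occurred in 35.7% of them. The windows of Bcl2a1a, Bcl2a1b and Bcl2a1d held 3, 4 and 4 CpG dinucleotides, below the median of 7 over all windows, whereas that of Mcl1 held 33. The windows of Bcl2l1 held 1, 14 and 22, so a low count was not particular to the Bcl2a1 genes. The NF-κB motif had no match in the Bcl2a1 windows and occurred in 8.46% of all windows. These are matches of letters and show no binding.

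At 24h after photoconversion, A1 RNA was higher in cells that had stayed in the tumour. The summed Bcl2a1 rows stood at 108.1, 123.8, 115.4 and 97.1 CPM in the Kaede-green libraries and at 138.2, 202.6, 304.9 and 217.3 CPM in the Kaede-red libraries. The groups did not overlap, and Kaede-red replicate 3 was the highest of all 16 libraries. Relative to Kaede-green cells the sum was 1.94-fold higher (log2 fold change 0.96 ± 0.25 SE, edgeR adjusted p = 0.0131). Bcl2a1a rose from 33.1 ± 2.68 to 68.6 ± 24.4 CPM (log2 fold change 1.04 ± 0.26, edgeR adjusted p = 0.00941) and Bcl2a1d from 23.4 ± 6.22 to 54.7 ± 16.2 CPM (1.21 ± 0.27, edgeR adjusted p = 0.00395; SD, n = 4). Bcl2a1b, at 54.5 ± 5.92 and 92.0 ± 28.1 CPM, missed the threshold (0.75 ± 0.24, edgeR adjusted p = 0.0531), and its groups overlapped. It was called in 3 of 16 fits without 1 library and under 6 of 10 other settings. Among these was scaling by library size only, where all 10 members were called. Without Kaede-red replicate 3 the value of the sum was 0.74 (edgeR adjusted p = 0.0800) and that of Bcl2a1a 0.80 (edgeR adjusted p = 0.0644), both past the threshold no longer, while Bcl2a1d kept its call (edgeR adjusted p = 0.0249).

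Of the 10 genes, 3 were called higher in Kaede-red cells at 24h (Bcl2a1a, Bcl2a1d and Bcl2l1), where 3.2% of all tested genes were called higher, and none was called lower. The members' median log2 fold change was 0.74, against 0.05 over all tested genes. The Bcl2a1 genes count as 3 of the 10 but share sequence, so they are not separate observations.

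By 72h the A1 transcripts had fallen in the retained cells. In Kaede-red libraries at 72h the summed rows were at 75.2, 103.2, 109.1 and 61.8 CPM, all below the lowest Kaede-red library at 24h. The sum dropped 2.47-fold (log2 fold change -1.31 ± 0.25, edgeR adjusted p = 0.00164), with Bcl2a1a at -1.28 ± 0.25 (edgeR adjusted p = 0.00205), Bcl2a1b at -1.32 ± 0.24 (edgeR adjusted p = 0.00121) and Bcl2a1d at -1.31 ± 0.26 (edgeR adjusted p = 0.00234). These were the only members called between the times in Kaede-red cells, 3 of 10 lower against 3.76% of all tested genes called lower. All 3 are Bcl2a1 copies that share sequence, so they are not separate observations. The members were chosen with earlier results of these data known, so the 2 shares are set side by side as a description. The calls of these 3 genes and of the sum held in all 16 fits that left out 1 library. Once the Rn45s share was a covariate, the sum was still called (edgeR adjusted p = 0.0372), and of the 3 rows only Bcl2a1b was. The members' median was -0.44, against -0.01 over all tested genes, and the Bcl2a1 copies enter this median as 3 genes.

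In Kaede-green cells no such fall was seen. Their summed rows at 72h were 86.7, 176.4, 159.4 and 86.6 CPM, 2 libraries below and 2 above the range of the 24h libraries, so the change with time had no single direction (log2 fold change 0.20 ± 0.25, edgeR adjusted p = 0.868). Kaede-red and Kaede-green libraries at 72h overlapped (-0.55 ± 0.24, edgeR adjusted p = 0.124), and this value turned to 0.25 with the Rn45s share as a covariate. The test of the change in the red-green difference from 24h to 72h gave -1.50 ± 0.35 for the sum (edgeR adjusted p = 0.0418), -1.67 ± 0.36 for Bcl2a1a (edgeR adjusted p = 0.0281), -1.65 ± 0.38 for Bcl2a1d (edgeR adjusted p = 0.0375) and -1.31 ± 0.34 for Bcl2a1b (edgeR adjusted p = 0.0610). Thus 2 of 10 members were called lower, against 0.332% of all tested genes. Both are Bcl2a1 copies that share sequence and are not separate observations. The call of the sum was lost in 11 of 16 fits without 1 library, with values from -1.66 to -1.27 and the weakest, at edgeR adjusted p = 0.123, without Kaede-red 24h replicate 3. The count of 2 became 0 without Kaede-green 24h replicate 2 or 3, Kaede-red 24h replicate 3 or 4, Kaede-green 72h replicate 2 or 3, or Kaede-red 72h replicate 1, 2 or 4, and 3 without Kaede-red 24h replicate 1 or Kaede-green 72h replicate 1 or 4.

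The division of the sum among the copies differed most in Kaede-green cells at 24h, and is given with no test. Bcl2a1b held 49.1 ± 3.73% of the Bcl2a1 counts in Kaede-green cells at 24h, and 42.8 ± 0.744, 42.0 ± 2.59 and 42.5 ± 3.09% in Kaede-red cells at 24h, Kaede-green cells at 72h and Kaede-red cells at 72h (SD, n = 4). Bcl2a1a held between 28.4 and 35.8% in every library and Bcl2a1d between 14.7 and 27.0%. At 24h the share of Bcl2a1b was 44.5 to 52.9% in Kaede-green and 41.9 to 43.7% in Kaede-red libraries, with no overlap, and the mean share of Bcl2a1d was 20.9% and 25.5%.

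**Figure D2:**
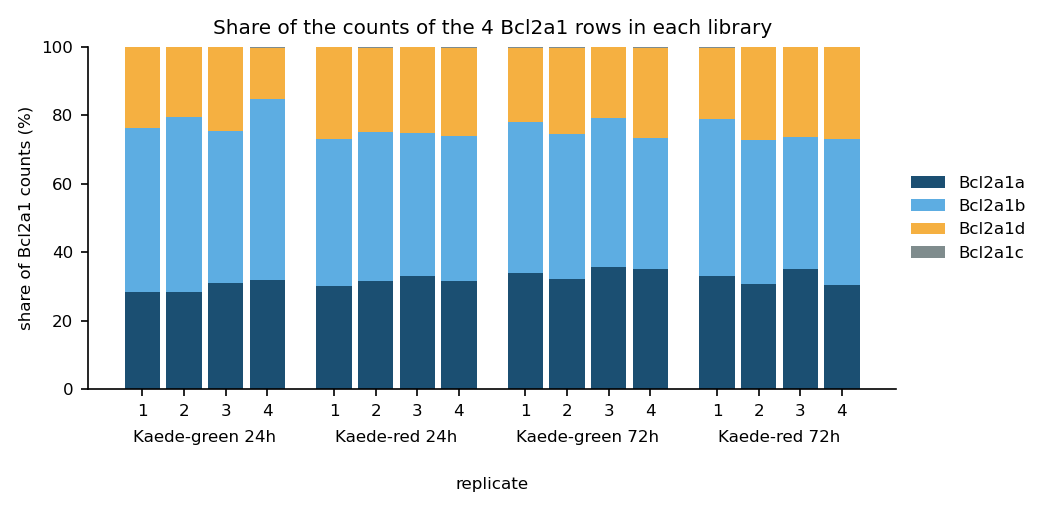
Stacked bars give, for each of the 16 libraries on the x axis, the share in percent of all Bcl2a1 counts that was assigned to each of the 4 rows. Bcl2a1b takes the largest part in every library, and Bcl2a1c is hardly visible.

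Mcl1, the other abundant guardian, was lower in Kaede-red cells over both times. It lies at chr3:95658788-95663176 on the plus strand. Kaede-green libraries had 264.6, 237.0, 220.7 and 243.2 CPM at 24h and 209.8, 221.1, 201.8 and 172.7 CPM at 72h. Kaede-red libraries had 178.9, 191.0, 163.3 and 187.7 CPM at 24h and 145.9, 137.5, 155.8 and 125.6 CPM at 72h. At each time all 4 Kaede-red libraries were below all 4 Kaede-green libraries, and all Kaede-red libraries at 72h were below those at 24h. Over both times Mcl1 was lower in Kaede-red cells by a log2 fold change of -0.47 ± 0.13 (edgeR adjusted p = 0.00749), and this call held in 16 of 16 fits without 1 library. At 72h the value was -0.51 ± 0.18 (edgeR adjusted p = 0.0435), a call kept in 4 of those 16 fits, and at 24h it was -0.42 ± 0.18 (edgeR adjusted p = 0.162). DESeq2, unlike edgeR, called the 24h difference. The fall with time in Kaede-red cells, -0.35 ± 0.18, did not pass (edgeR adjusted p = 0.227), although DESeq2 called it. Scaled by library size only, Mcl1 was at 1.69 over both times, the other sign, but the median of all tested genes moved to 2.20 under that scaling, so Mcl1 stayed below it. The call over both times was lost with the Rn45s share as a covariate (edgeR adjusted p = 0.643) and without a filter on low counts (edgeR adjusted p = 0.150).

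Bcl2l1, which encodes BCL-XL, was the member with the steadiest difference between the colours. It lies at chr2:152780668-152831728 on the minus strand. Its levels were 7.80, 7.36, 5.61 and 8.16 CPM in Kaede-green libraries at 24h and 8.01, 10.4, 10.5 and 12.7 CPM at 72h, on 14 to 49 counts a library. In Kaede-red libraries they were 20.4, 18.8, 14.7 and 18.6 CPM at 24h and 19.5, 19.3, 17.4 and 14.0 CPM at 72h. All 8 Kaede-red libraries exceeded all 8 Kaede-green libraries. The log2 fold change was 1.05 ± 0.16 over both times (edgeR adjusted p = 9.51e-06), 1.35 ± 0.24 at 24h (edgeR adjusted p = 0.000281) and 0.75 ± 0.21 at 72h (edgeR adjusted p = 0.0140). The call over both times held under all 9 alternative settings and in 16 of 16 fits without 1 library. The 72h call was lost without Kaede-green 72h replicate 1 (0.64, edgeR adjusted p = 0.0581), without Kaede-red 72h replicate 1 (0.69, edgeR adjusted p = 0.0531) and with the Rn45s share as a covariate. The change of the difference with time, -0.61 ± 0.32, was not called (edgeR adjusted p = 0.369). Of the 10 genes 2 were called over both times, Bcl2l1 higher and Mcl1 lower, against 20.2% of all tested genes called in either direction, so the share of members called was that of the background.

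**Figure D3:**
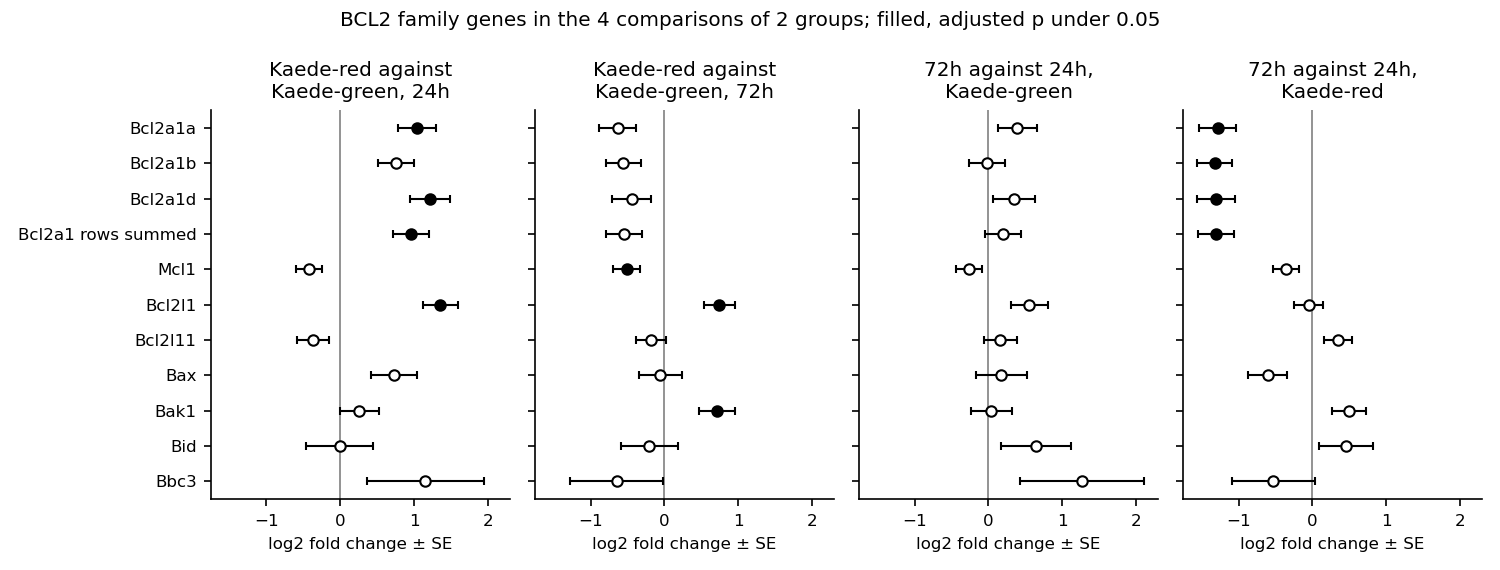
Log2 fold changes ± SE of the 10 BCL2 family genes and of the summed Bcl2a1 rows (y axis) in the 4 comparisons of 2 groups, from the edgeR fit of 16 libraries; filled points have an adjusted p under 0.05. The Bcl2a1 rows lie right of 0 at 24h and left of 0 in the comparison of times within Kaede-red cells, and Bcl2l1 and Mcl1 lie on opposite sides in both comparisons of the colours.

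Of the pore formers, Bak1 was higher in Kaede-red than in Kaede-green cells at 72h, and Bax did not pass in any comparison. Bak1 lies at chr17:27019810-27029009 on the minus strand, and shares exon sequence on the opposite strand with Ggnbp1, which held at most 1 count in any library. Bak1 was at 14.2, 7.61, 9.72 and 14.8 CPM in Kaede-green and at 22.5, 19.4, 15.999 and 17.7 CPM in Kaede-red libraries at 72h. The groups did not overlap, and the log2 fold change was 0.72 ± 0.24 (edgeR adjusted p = 0.0403). At 24h the Kaede-red libraries, 12.6 to 14.4 CPM, lay inside the Kaede-green range of 6.94 to 16.8 CPM (0.26 ± 0.26, edgeR adjusted p = 0.629). Over both times Bak1 stood just outside the threshold (0.49 ± 0.18, edgeR adjusted p = 0.0506), and DESeq2 called it. The call at 72h was lost in 5 of 16 fits without 1 library, with the weakest value of 0.54 (edgeR adjusted p = 0.182) without Kaede-green 72h replicate 2, and under 3 of 10 other settings.

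Bax, at chr7:45461697-45466898 on the minus strand, had 8.91, 9.81, 4.08 and 2.04 CPM in Kaede-green and 8.41, 11.7, 10.9 and 8.83 CPM in Kaede-red libraries at 24h. At 72h it ranged from 5.48 to 8.04 CPM and from 5.48 to 6.97 CPM. All 4 Kaede-red libraries at 72h were below those at 24h, but the log2 fold change of -0.61 ± 0.26 missed the threshold (edgeR adjusted p = 0.159), and so did that of Bak1 in the other direction (0.50 ± 0.23, edgeR adjusted p = 0.186). Both were called when only the 8 Kaede-red libraries were fitted, which raised the members called between the times from 3 to 5.

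At 72h, 3 of 10 members were called between the colours, Bcl2l1 and Bak1 higher and Mcl1 lower, against 16.8% of all tested genes called in either direction. The members' median was -0.32, against 0.03 over all tested genes, and the near-identical Bcl2a1 copies enter this median as separate genes. That count was 0 without Kaede-red 72h replicate 1, 1 without Kaede-green 72h replicate 2 or 3 or without Kaede-red 72h replicate 2 or 4, and 5 without Kaede-green 72h replicate 4, when Bcl2a1a and Bcl2a1b were also called lower. With the Rn45s share as a covariate it was 0.

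None of the BH3-only members passed the test in any comparison. Bcl2l11, the gene of BIM, at chr2:128126038-128162547 on the plus strand, was the most abundant, with 13.9 to 19.6 CPM in Kaede-green and 9.41 to 14.3 CPM in Kaede-red libraries at 24h, and 14.6 to 20.0 and 13.9 to 17.5 CPM at 72h. Its difference over both times was -0.28 ± 0.15 (edgeR adjusted p = 0.193). Bid, at chr6:120891930-120916853 on the minus strand, shares exon sequence on the opposite strand with Bcl2l13 over 17.7% of its exonic length and lay between 0.817 and 7.05 CPM, on 2 to 165 counts. Bbc3, the gene of PUMA, at chr7:16308393-16318205 on the plus strand, had 0 to 9 counts in Kaede-green and 3 to 51 in Kaede-red libraries. At these counts the standard error of the 24h difference was 0.45 for Bid and 0.79 for Bbc3 on the log2 scale, so differences of that size were not detectable, and the 24h difference of Bbc3, 1.15, was not called (edgeR adjusted p = 0.442).

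In Kaede-green cells none of the 10 genes was called between 24h and 72h, nor was any other tested gene (0% of 9642 by edgeR). At an unadjusted p under 0.05 there were 1 member, Bcl2l1 (log2 fold change 0.56 ± 0.25), and 835 genes, and DESeq2 called 0 members and 14 genes.

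The counts of the 6 rows for A1, MCL1 and BCL-XL were divided by those of the 5 pro-apoptotic members in each library, as a description with no test. The ratio was 8.34 to 11.4 in Kaede-green and 8.74 to 13.1 in Kaede-red libraries at 24h, and 6.13 to 12.4 and 4.60 to 6.78 at 72h. On the log2 scale the group means were 3.31 ± 0.21, 3.38 ± 0.27, 3.01 ± 0.47 and 2.42 ± 0.26 (SD, n = 4), so that the Kaede-red libraries at 72h had the lowest mean, with every one below all Kaede-red libraries at 24h. The red minus green difference at 24h, 0.07, was smaller than the SD, and left-out rows moved it in opposite directions. Without the Bcl2a1 rows the Kaede-red mean was below the Kaede-green mean by 0.45 (2.32 ± 0.10 against 2.77 ± 0.24), and without Mcl1 it was 0.82 above (2.52 ± 0.46 against 1.70 ± 0.21). At 72h the red minus green difference was -0.59, or -0.55 and -0.49 without these rows, with a group SD of up to 0.70. A ratio of RNA counts does not weight transcripts by length or protein by activity.

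**Figure D4:**
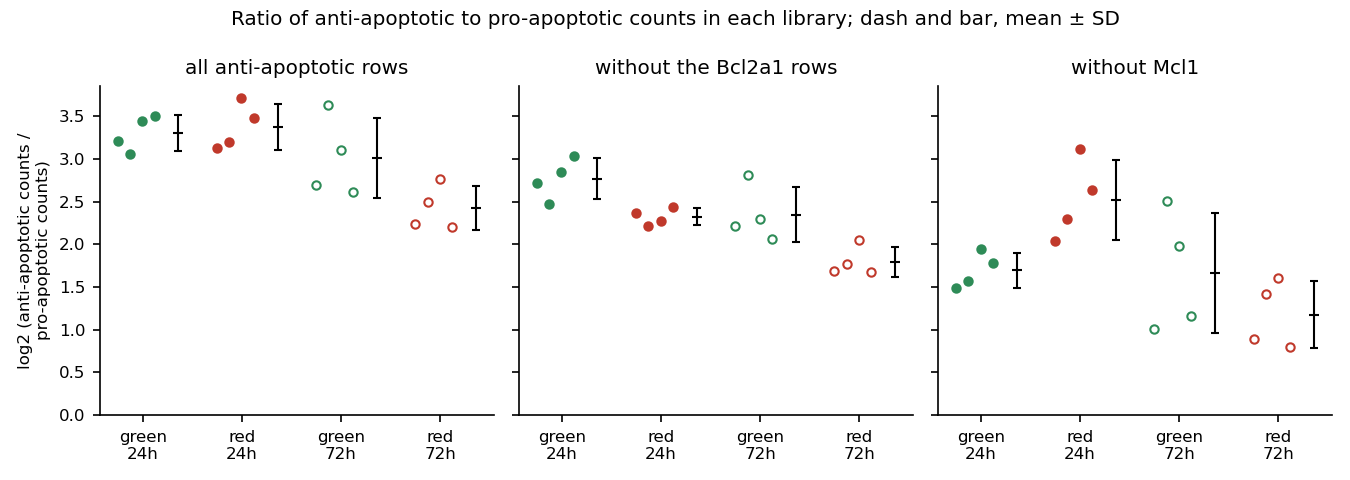
The log2 ratio of anti-apoptotic to pro-apoptotic counts (y axis) in each of 16 libraries by group (x axis), with all anti-apoptotic rows, without the Bcl2a1 rows and without Mcl1; the dash with its bar is the mean ± SD of 4 libraries. At 24h the colours overlap with all rows, and lie on opposite sides when the Bcl2a1 rows or Mcl1 are left out.

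Among the other genes of the pathway most did not pass. Of 17 further BCL2 family genes 9 were tested, with 0 called higher and 2 called lower in Kaede-red cells over both times. The counts of lower calls were 1 at 24h and 3 at 72h. Of all tested genes 10.3, 4.3 and 8.76% were called lower in these comparisons, and nothing is read from counts this small. Bcl2l2, which encodes the guardian BCL-W, was at 1.88 ± 0.667 CPM in Kaede-red against 5.10 ± 1.95 CPM in Kaede-green cells at 24h (log2 fold change -1.49 ± 0.44, edgeR adjusted p = 0.0319) and at 1.25 ± 0.579 against 3.33 ± 1.44 CPM at 72h (-1.36 ± 0.43, edgeR adjusted p = 0.0270; SD, n = 4). Both calls were lost without a filter on low counts, with the replicate number as a block (edgeR adjusted p = 0.0695 and 0.0532) and without some single libraries, with the value nearest 0 at 24h (-1.17) when Kaede-green 24h replicate 3 was left out and at 72h (-1.03) when replicate 3 of Kaede-green 72h was.

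Pmaip1, which encodes the BH3-only protein NOXA that binds MCL1 and A1, was lower at 72h in Kaede-red cells, at 9.06 ± 1.23 CPM, than in Kaede-green cells, at 17.5 ± 4.74 CPM (log2 fold change -0.93 ± 0.22, edgeR adjusted p = 0.00239). It was also below the 15.4 ± 0.744 CPM of Kaede-red cells at 24h (-0.76 ± 0.21, edgeR adjusted p = 0.0199; SD, n = 4), a call that 5 of 16 fits without 1 library lost. Bnip3, a hypoxia-inducible mitophagy receptor, fell from 46.7 ± 6.30 to 19.5 ± 3.07 CPM between the times in Kaede-red cells (-1.27 ± 0.20, edgeR adjusted p = 0.000458) and was lower there than in Kaede-green cells at 72h (-1.03 ± 0.21, edgeR adjusted p = 0.000570). Its relative Bnip3l fell with it (-0.79 ± 0.24, edgeR adjusted p = 0.0383), a call kept in 8 of 16 fits without 1 library. The direction of Bcl2l2, Pmaip1 and Bnip3 between the colours turned under scaling by library size only, where each stayed below the shifted median of all genes.

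Of 14 apoptosome and caspase genes 13 were tested. None was called higher in Kaede-red cells, and each comparison of the colours had 1 lower call, about the share of all tested genes called lower. Apaf1, the scaffold of the apoptosome, rose in Kaede-red cells from 9.74 ± 1.56 CPM at 24h to 18.5 ± 1.33 CPM at 72h (0.93 ± 0.20, edgeR adjusted p = 0.00405; SD, n = 4), and this call held in all 16 fits without 1 library. Its groups overlapped at 24h, where it was called lower in Kaede-red cells (-0.69 ± 0.22, edgeR adjusted p = 0.0466). Cycs, the gene of cytochrome c, was called lower over both times and at 72h (-0.85 ± 0.21, edgeR adjusted p = 0.00479). Its groups overlapped too, so both of these results fall outside the rule for named genes and were added after the values were seen.

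Of 10 death receptor genes, adaptors and inhibitors, all tested, 1 was called higher and 1 lower in Kaede-red cells at 72h, against 8.07 and 8.76% of all tested genes. Ripk1, a kinase of the TNF receptor complex, stood at 17.4 ± 1.66 against 9.21 ± 2.87 CPM (log2 fold change 0.93 ± 0.23, edgeR adjusted p = 0.00500). Birc2, which encodes the ubiquitin ligase cIAP1 of the same complex, stood at 6.71 ± 1.22 against 12.2 ± 1.41 CPM (-0.87 ± 0.23, edgeR adjusted p = 0.00803; SD, n = 4). Tnfrsf1a, the receptor itself, rose between the times in Kaede-red cells (0.67 ± 0.18, edgeR adjusted p = 0.0211), a call kept in 12 of 16 fits without 1 library. Once the Rn45s share was a covariate, the calls between the times in Kaede-red cells were lost for Tnfrsf1a (edgeR adjusted p = 0.147), Pmaip1 (edgeR adjusted p = 0.186) and Bnip3l (edgeR adjusted p = 0.180), and held for Bnip3 and Apaf1.

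Of 12 upstream regulators 11 were tested. Ccng1, a known p53 target, was at 16.2 ± 2.88 CPM in Kaede-red against 5.42 ± 0.858 CPM in Kaede-green cells at 24h (log2 fold change 1.58 ± 0.25, edgeR adjusted p = 0.000105) and at 14.4 ± 2.73 against 7.17 ± 0.870 CPM at 72h (1.01 ± 0.23, edgeR adjusted p = 0.00212; SD, n = 4). The other p53 targets of the list that were tested were not called. Fbxw7, part of a ubiquitin ligase whose substrates include MCL1, was at 4.16 ± 0.496 CPM in Kaede-red against 8.76 ± 2.77 CPM in Kaede-green cells at 72h (-1.07 ± 0.28, edgeR adjusted p = 0.00608). In Kaede-green cells no gene of these lists was called between the times. With the Rn45s share as a covariate, the 72h calls between the colours of Bcl2l2, Pmaip1, Bnip3, Ripk1, Birc2, Ccng1 and Fbxw7 were lost, as was the 24h call of Bcl2l2, while that of Ccng1 at 24h held.

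**Figure D5:**
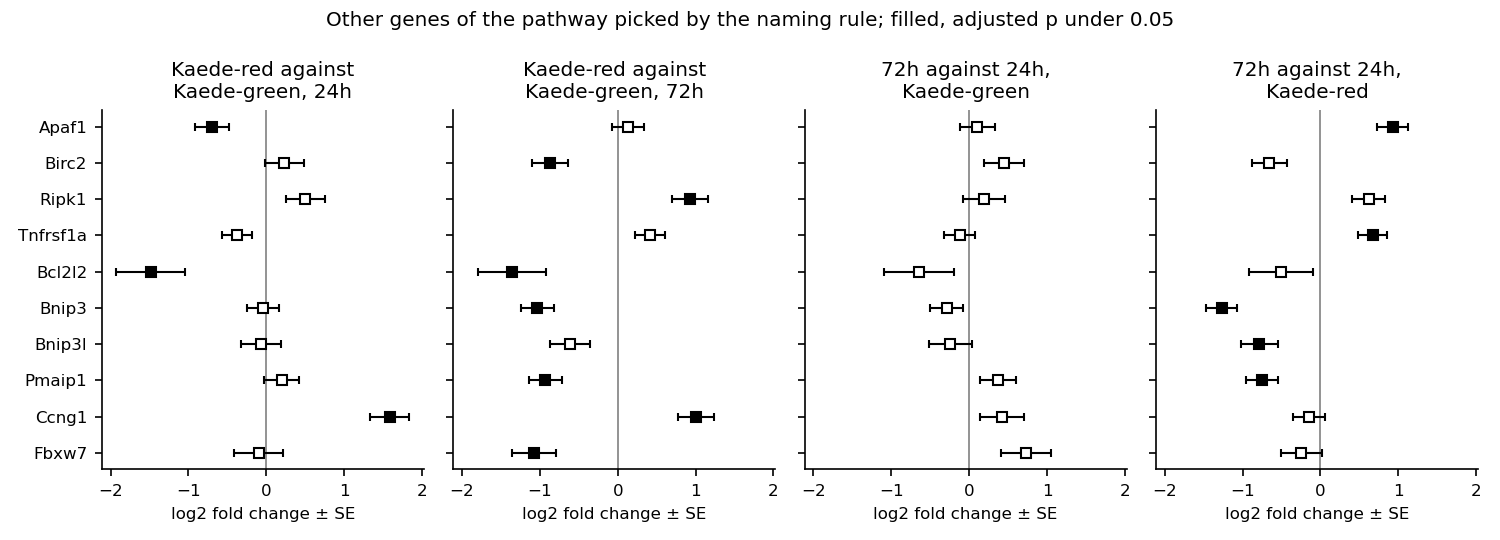
Log2 fold changes ± SE of the other pathway genes picked by the naming rule (y axis) in the 4 comparisons of 2 groups; filled squares have an adjusted p under 0.05 by edgeR. Ccng1 lies right of 0 in both comparisons of the colours, Bcl2l2 left of 0 in both, and Bnip3 furthest left in the comparison of times within Kaede-red cells.

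Across the 16 libraries, the genes whose centred log2 CPM lay closest to that of the summed Bcl2a1 rows were the chemokine gene Ccl12, the C-type lectin gene Clec4n and the histone gene Hist1h2ao, among 1385 genes with a mean log2 CPM of at least 4. Their root mean square differences from it were 0.21, 0.30 and 0.33, where the rows' own root mean square deviation was 0.59. For Mcl1 they were H3f3b, Stk17b and Ssr3, at 0.12, 0.13 and 0.15 against its own 0.30. The libraries share groups, depth and Rn45s content, so likeness over them is a description.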

How the data were processed

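RNA of sorted CD11b+ tumour cells was made into libraries with a stranded total RNA kit for low input. According to the study's methods, reads were trimmed with Trim Galore, checked with FastQC, aligned to mm10 with HISAT2 and counted per gene with featureCounts. The authors deposited raw counts per gene and library, with no normalization. The annotation and the settings for strand and for reads with several matches are not given in the sources used here.

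Libraries were grouped by colour and time from the labels. A single edgeR 4.0.16 quasi-likelihood fit (R 4.3.3) of all 16 libraries, with filterByExpr and TMM, gave 6 comparisons, with Benjamini-Hochberg adjustment over 9642 genes and a threshold of 0.05. It was tested on simulated data. Per-gene p-values judge a difference between groups against the spread between libraries. A figure legend of the study describes the points of its bulk data as tumours of independent mice. It does not say whether both colours came from the same tumour. No 2 libraries of a group were copies (chi-square per gene 3.21 to 95.6). DESeq2 1.42.0, other scalings and filters, a replicate block, the Rn45s share as a covariate, thinned Kaede-red libraries and leaving out each library were alternatives.

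All 10 members are named in every comparison. Other pathway genes are named where called with no overlap between groups, at most 3 per list and comparison, and 1 gene of the pathway is not reported here. Members and lists were chosen with earlier results of these data known. Promoters are from RefSeq and transcripts and exons from GENCODE M21.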

Additional observations from a re-analysis of the deposited data

Results flagged for a closer look

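Bcl2a1b in Kaede-green cells at 24h stood at 63.3 CPM in replicate 2, apart from the other 3 libraries, which lay between 51.3 and 51.8 CPM. This was 1 such library among 48 groups of 4 values examined, and chance gives about 1 in 20. The red minus green difference changed from 24h to 72h by -1.67 for Bcl2a1a, by -1.65 for Bcl2a1d and by -1.50 for the summed Bcl2a1 rows on the log2 scale, each past the threshold in the test of that change itself by edgeR. These 3 values come from rows that share sequence.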

How the results depend on the processing

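Depth limited Bid and Bbc3 most. At 24h the share of Rn45s was 86.5 to 93.4% in Kaede-green and 66.2 to 84.9% in Kaede-red libraries. At 72h it was 79.0 to 91.0% and 55.8 to 73.8%. The colours did not overlap in this share at either time, so a covariate cannot fully separate it from the colour. For calls lost with the covariate, the share and the colour cannot be told apart. With that covariate the members called were 1 over both times, 4 at 24h (Bcl2a1b gained), 0 at 72h, 1 between the times in Kaede-red cells (Bcl2a1b) and 1 for the change of the difference (Bcl2a1a). Calls over all tested genes went from 1950 to 156, 724 to 206, 1623 to 102, 836 to 110 and 74 to 34. The summed Bcl2a1 rows were then at 0.25 at 72h and -1.25 for the change of the difference. Bcl2a1a, Bcl2a1b and Bcl2a1d turned to 0.26, 0.22 and 0.26 at 72h, and between the times in Kaede-green cells Bcl2a1b turned to 0.10 and Bak1 to -0.031. The cause was not tested.

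Scaling by library size only moved the median log2 fold change of all tested genes to 2.20 over both times, 2.33 at 24h, 2.04 at 72h, 0.74 and 0.42 between the times in Kaede-green and Kaede-red cells, and -0.33 where the change of the difference was tested. The members called were then 10, 10, 9, 0 between the times in Kaede-red cells and 0 as regards the change, where 9328, 9052, 8133, 9 and 1 of 9642 genes were called. The summed rows were at 2.29 over both times, 1.45 at 72h, -0.86 between the times in Kaede-red cells and, as regards the change, -1.67. Signs turned for Mcl1 (1.69), Bcl2l11 (1.88) and Bid (2.14) over both times. At 24h they turned for Mcl1 (1.90), Bcl2l11 (1.96), Bid (2.504) and Bcl2l2 (0.71). At 72h they turned for Bcl2a1a (1.34), Bcl2a1b (1.48), Bcl2a1d (1.57), Mcl1 (1.47), Bcl2l11 (1.81), Bax (1.86), Bid (1.77), Bbc3 (1.44), Birc2 (1.12), Bcl2l2 (0.66), Bnip3 (0.97), Pmaip1 (1.15) and Fbxw7 (1.03). Between the times they turned for Bcl2a1b (0.57) and Mcl1 (0.43) in Kaede-green cells and for Mcl1 (0.0033), Bcl2l1 (0.28) and Bbc3 (0.075) in Kaede-red cells. The change of the difference turned for Bcl2l11 (-0.14).

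Without a filter Bid turned to 0.015 over both times and 0.082 at 24h, Bax to 0.095 at 72h, Bcl2a1b to 0.0029 between the times in Kaede-green cells and Bcl2l1 to 0.023 in Kaede-red cells. With at least 10 counts in every library Bcl2a1b was at 0.040 in Kaede-green cells, and with thinned libraries Bax was at 0.17 at 72h. Fitting only the groups compared called 5 members between the times in Kaede-red cells. The log2 balance at 24h was -0.45 without the Bcl2a1 rows and 0.82 without Mcl1.

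Without 1 library, members called ranged from 0 to 5 at 72h and from 0 to 3 for the change of the difference. The summed rows ranged from -0.0070 to 0.35 between the times in Kaede-green cells, from 0.74 to 1.13 at 24h and from -1.66 to -1.27 for the change. Signs turned within the ranges of Bak1 (-0.14 to 0.30), Bax (-0.12 to 0.53) and Bcl2a1b (-0.22 to 0.16) in Kaede-green cells, Bcl2l1 (-0.11 to 0.045) in Kaede-red cells, Bax at 72h (-0.16 to 0.065), and Bid over both times (-0.24 to 0.13), at 24h (-0.30 to 0.49), at 72h (-0.42 to 0.14) and for the change (-0.71 to 0.15).

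Green and red libraries with the same replicate number correlated at -0.018 to 0.153 in their deviations from the group means (median 0.039), with 1 of 8 pairs over 0.1. Those with different numbers correlated at -0.132 to 0.147 (median -0.019), with 1 of 24 over 0.1. The numbers were not taken to pair the libraries, but these values do not show that the libraries came from different tumours. With a replicate block 4 members were called over both times, 4 at 24h, 4 at 72h, 0 and 3 between the times in Kaede-green and Kaede-red cells, and 3 when the change of the difference was tested.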
